A study of Hirudo medicinalis with 12 samples.

Results

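In the nerve cord of the medicinal leech, Hirudo medicinalis, 150 assembled transcripts had a higher level, as reads scaled to each library's total, in every library of ganglion 19 than in any library of ganglia 10 and 2. Ganglion 19 lies toward the tail, ganglion 10 in mid-body and ganglion 2 near the head. RNA was sequenced in 12 libraries of adult leeches: 3 of ganglion 19 (libraries 3, 6 and 9), 6 of ganglion 10 (libraries 2, 5, 8, 10, 11 and 12) and 3 of ganglion 2 (libraries 1, 4 and 7). All animals came from 1 colony kept in tanks at 16 °C, and the labels give no treatment. The series names 3 leeches, and the labels do not tie libraries to animals, so libraries may share a leech, and a p-value here speaks of libraries, whose spread may be technical, and not of animals. Counts are of whole ganglia, in which more cells of a type and more RNA per cell cannot be told apart.

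The 150 were chosen by their own read counts. The table groups its 76845 assembled sequences into 58593 components, a component being a set of sequences that the assembly put together, and 48935 components hold a single sequence. For these, the level is L = log2(CPM + 1), with CPM the count divided by the library's total and multiplied by 1000000. The gap is the lowest L of the 3 ganglion 19 libraries minus the highest L of the other 9. A gap above 0 was found in 152 components, 0.311% of those with a single sequence, and the 150 with the largest gap are the members. Every value of ganglion 19 against the other ganglia below is therefore a description of the choice, given with no test. The sequences carry no gene names and none of their letters are given in the sources used here, so no function can be given for the products and markers of nerve tissue could not be looked for. CPM is not divided by sequence length, so it compares libraries for a component and not components with each other.

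Each midbody ganglion of the leech serves its own body segment and repeats most of the same identified neurons from segment to segment. Some neurons are found in only a stretch of segments, among them motor neurons of the heart tubes and cells that serve the reproductive organs. Along the body of segmented animals, Hox genes mark position by being active in stretches of segments. None of the members could be matched to these genes.

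Libraries differed in more than the ganglion. Total counts ran from 6436783 to 19110631. A single sequence took 36.2% of all counts in library 3 and 19.2% in library 1. The scaling factors of edgeR's TMM method, which corrects for such dominance, were lowest in these (0.598 and 0.468, against 0.929 to 1.35 in the others). Counts were seen for 30.7%, 33.6% and 39.7% of single-sequence components in libraries 1, 3 and 9, against 51.6% to 71.3% in the others. How this bears on the choice of members was not tested. Lanes were mixed across ganglia: libraries 3 and 6 ran in lane 8 with libraries 2, 8 and 4, library 9 ran in lane 4 with libraries 5, 10, 11 and 1, and lane 2 held libraries 12 and 7. With TMM-scaled CPM 142 of the 150 kept a gap above 0 and 120 stayed among the 150 widest. With the size factors of DESeq2 133 of the 150 kept a gap above 0.

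The members made up 1.40% to 2.04% of all counts in the ganglion 19 libraries, against 0.250% to 0.737% in ganglion 10 and 0.231% to 0.430% in ganglion 2. Of their counts in ganglion 19, 65.3% came from the 10 members with the most. The median over members of the mean level was 10.9 CPM in the 3 libraries of ganglion 19, 0.142 CPM in the 6 of ganglion 10 and 0.0518 CPM in the 3 of ganglion 2. Gaps ran from 0.03 to 4.99 log2 units with a median of 0.49. In 46 members the gap exceeded 1 and in 9 it exceeded 3. Over all components with a single sequence and any count the median was -2.14.

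**Figure D1:**
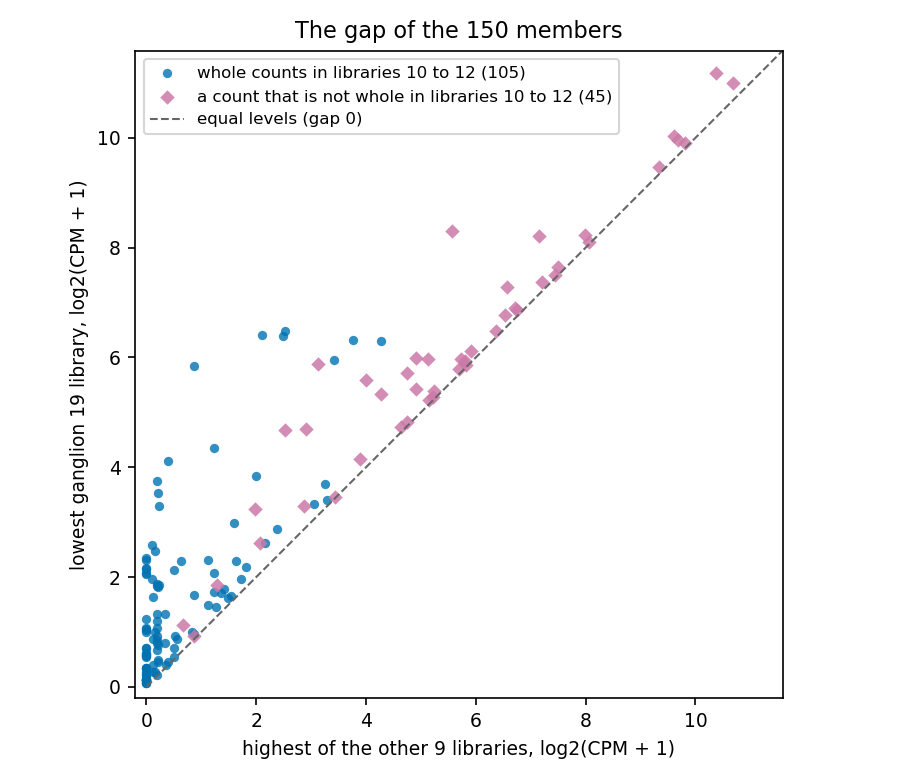
Each of the 150 members is a point, placed by its highest level in the 9 libraries of ganglia 10 and 2 (horizontal, log2(CPM + 1)) and its lowest level in the 3 libraries of ganglion 19 (vertical, log2(CPM + 1)); the dashed line marks a gap of 0. Members at the left edge had no counts outside ganglion 19, members at the upper right lay close to the line, and diamonds mark the 45 members with a count that is not whole in libraries 10 to 12.

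The 9 widest gaps belonged to members that stayed at or below 4.76 CPM in every library outside ganglion 19. comp1510_c0, with the widest gap of all (4.99), had 116, 56.6 and 175 CPM in libraries 3, 6 and 9. Its levels were 0 to 0.817 CPM in ganglion 10 (median 0.361) and 0.315, 0.155 and 0.0745 CPM in libraries 1, 4 and 7. The lowest ganglion 19 library thus lay far above the highest of the rest, and pooled counts were 478-fold higher in ganglion 19 than in the other 9 libraries (95% counting interval 321 to 747). Such intervals, here and below, cover counting error only and not the spread between libraries.

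comp6730_c0 reached 1254 CPM in library 3, against 84.2 and 161 CPM in libraries 6 and 9. Outside ganglion 19 it stayed within 0.137 to 3.32 CPM in ganglion 10 (median 1.24) and 0.621 to 1.04 CPM in ganglion 2. The gap of 4.30 was set by library 6, and the pooled fold of 314 (interval 263 to 378) rested largely on library 3.

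comp15268_c0 and comp5782_c0 shared an order of libraries, with 3 above 6 and 6 above 9. comp15268_c0 had 549, 185 and 87.9 CPM in libraries 3, 6 and 9, 0.0772 to 4.76 CPM in ganglion 10 (median 0.296), and 0.237, 0.466 and 0 CPM in libraries 1, 4 and 7. comp5782_c0 had 704, 268 and 82.9 CPM in libraries 3, 6 and 9, 0 to 4.62 CPM in ganglion 10 (median 0.353), and a count in only 1 of the ganglion 2 libraries (0.621 CPM in library 4). In both, the highest trace outside ganglion 19 was in library 2, and no library of ganglion 10 or 2 came near ganglion 19 (gaps 3.95 and 3.90, pooled folds 337 and 475).

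A further set rested on few or no counts outside ganglion 19. comp22694_c0 had 82.2, 12.9 and 12.5 CPM in libraries 3, 6 and 9, a total of 2 counts in ganglion 10 and none in ganglion 2 (gap 3.57). Its pooled ratio was 1408, with a counting interval from 389 to 11642 that shows how little 2 counts fix it. comp9897_c0, with 3 counts in all outside ganglion 19, had 139, 40.8 and 8.79 CPM in libraries 3, 6 and 9 (gap 3.06). comp19927_c0 had 52.6, 10.5 and 87.8 CPM in libraries 3, 6 and 9 and 5 counts elsewhere (gap 3.31, pooled ratio 1044, interval 447 to 3217).

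Library 3 was not always the highest. comp11643_c0 had its highest level in library 9, at 106 CPM against 24.2 and 16.3 CPM in libraries 3 and 6, and no more than 0.315 CPM in any library of ganglion 10 or 2 (gap 3.72). comp7198_c0 was instead highest in library 3, with 322 CPM in library 3 and 19.4 and 24.1 CPM in libraries 6 and 9, above at most 1.36 CPM outside ganglion 19 (gap 3.11). The spread inside ganglion 19 was 16.6-fold for comp7198_c0, yet its groups did not overlap, as the choice required.

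The last of the 12 with the widest gaps, comp3495_c0, comp655_c0 and comp2958_c0, were even across ganglion 19 and had a clear trace in library 2. comp655_c0 had 395, 315 and 495 CPM in libraries 3, 6 and 9, averaging 401 ± 90.3 CPM (SD, n = 3). In ganglion 10 it had 46.4 CPM in library 2 and at most 0.934 CPM in the other 5 libraries, and in ganglion 2 it had 0.466 to 0.710 CPM. comp2958_c0 had 110, 78.6 and 138 CPM in libraries 3, 6 and 9, against 12.5 CPM in library 2 and at most 0.817 CPM in any other library of ganglion 10 or 2. comp3495_c0 had 70.4, 57.8 and 117 CPM in libraries 3, 6 and 9, 7.75 CPM in library 2 and up to 3.47 CPM in ganglion 2. In all 3, library 2 was the highest library outside ganglion 19 and still lay below each ganglion 19 library.

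**Figure D2:**
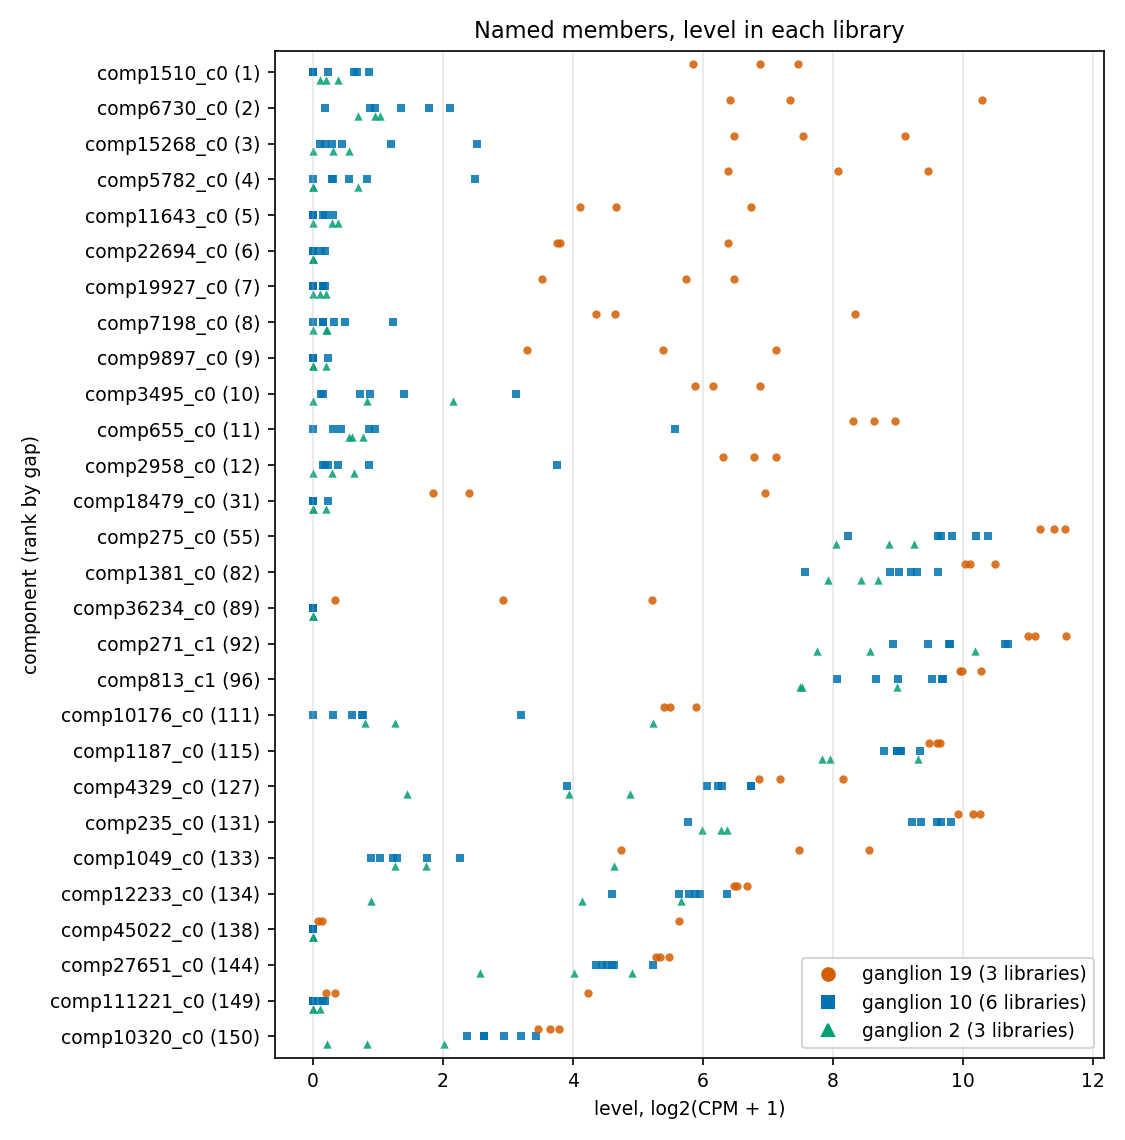
Level of the 28 named members in each library (horizontal, log2(CPM + 1)), ordered from the widest gap at the top, with the rank by gap in brackets. Circles are the 3 ganglion 19 libraries, squares the 6 of ganglion 10 and triangles the 3 of ganglion 2; in the top 12 all libraries outside ganglion 19 lie well to the left of ganglion 19, while the members of highest count, such as comp275_c0, are present everywhere.

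By their highest level outside ganglion 19, the members fell into 4 classes. In 37 no count was seen in any of the other 9 libraries, which allows a pooled level there of up to 0.0338 CPM, or 0.223 to 0.466 CPM in a single library, from 3 counts. Another 44 had a highest level of up to 1 CPM, 32 lay above 1 and up to 10 CPM, and 37 lay above 10 CPM. Of all 150, 41 had counts in all 9 of the other libraries.

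The 37 members with no counts elsewhere were mostly thin in ganglion 19 too. Their median mean was 2.51 CPM, and the median of their lowest ganglion 19 count was 5. The bound on the pooled fold ran from at least 19.9 to at least 1988. The largest gap among them belonged to comp88253_c0, with 17.1, 4.10 and 6.38 CPM in libraries 3, 6 and 9 (189, 41 and 122 counts), at least 259-fold higher in ganglion 19. comp3395_c1 had 3.44, 34.3 and 121 CPM in libraries 3, 6 and 9 (38, 343 and 2321 counts), at least 1988-fold higher. That bound rested largely on library 9. Both members were singled out after their values were seen. At the thin end, comp45022_c0 had 539 counts in library 3 and 1 count each in libraries 6 and 9 (gap 0.07), and comp36234_c0 had 401, 66 and 5 counts in libraries 3, 6 and 9 (gap 0.34). In those 2 the separation of the groups rests on a handful of reads. Over all 150 members, 39 had fewer than 10 counts and 21 fewer than 5 in their lowest ganglion 19 library.

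At the other end stood the 37 members above 10 CPM in at least 1 library outside ganglion 19. Their pooled fold had a median of 3.23 and ran from 1.59 to 98.6, their gap had a median of 0.23, and the lowest ganglion 19 library held at least 167 counts in each. comp275_c0, with the highest mean count of all members, had 3018, 2328 and 2694 CPM in libraries 3, 6 and 9. It had 298 to 1333 CPM in ganglion 10 (median 859) and 465, 263 and 604 CPM in libraries 1, 4 and 7. Pooled counts were 3.79-fold higher in ganglion 19 (counting interval 3.75 to 3.83). This interval covers counting error only and leaves out the spread between libraries, which is far wider. comp271_c1 had a mean of 2432 ± 549 CPM over libraries 3, 6 and 9 (SD, n = 3). The mean was 1033 ± 482 CPM over the 6 libraries of ganglion 10 and 586 ± 508 CPM over the 3 of ganglion 2 (SD).

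The other 3 members with a mean above 1000 CPM in ganglion 19 had gaps below 0.5, and none of their ganglion 19 libraries overlapped with the rest. comp1381_c0 had 1045, 1439 and 1096 CPM in libraries 3, 6 and 9 against at most 779 CPM in ganglion 10 and at most 411 CPM in ganglion 2. comp813_c1 had 1235, 1015 and 992 CPM in libraries 3, 6 and 9, against at most 822 CPM in ganglion 10 and at most 505 CPM in ganglion 2. comp235_c0 averaged 1108 ± 135 CPM over ganglion 19, 629 ± 302 CPM over ganglion 10 and 73.4 ± 9.98 CPM over ganglion 2 (SD, n = 3, 6 and 3), and its gap was 0.11.

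Small folds could still be very even. comp1187_c0 had 800, 777 and 711 CPM in libraries 3, 6 and 9, a range of 1.13-fold, above 439 to 643 CPM in ganglion 10 and 226 to 629 CPM in ganglion 2 (pooled fold 1.59). comp12233_c0 had 91.3, 102 and 87.9 CPM in libraries 3, 6 and 9, above 23.3 to 82.0 CPM in ganglion 10 and 0.868, 49.9 and 16.7 CPM in libraries 1, 4 and 7. comp27651_c0 had 43.8, 37.6 and 39.3 CPM in libraries 3, 6 and 9, just above its 36.4 CPM in library 12 of ganglion 10. With the size factors of DESeq2 the gap of comp1187_c0 turned to -0.10.

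At the limit of 150 the gap was all but closed. The last members inside were comp111221_c0 (gap 0.026), with 3, 178 and 3 counts in libraries 3, 6 and 9 and 4 counts in the other 9, and comp10320_c0 (gap 0.025), with 12.8, 10.0 and 11.6 CPM in libraries 3, 6 and 9 against 9.81 CPM in library 5. Just outside were comp93653_c0 (gap 0.018), with 18, 1 and 85 counts in libraries 3, 6 and 9 and 1 count elsewhere, and comp89847_c0 (gap 0.0066), at 0.785 CPM in its lowest ganglion 19 library and 0.777 CPM in its highest other library. The next component with counts in all 3 ganglion 19 libraries had a gap of -0.0080.

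The ganglion 19 libraries did not share a fixed profile over the members. The ratio of the highest to the lowest of libraries 3, 6 and 9 had a median of 5.10 and ran from 1.13 to 932. It exceeded 2 in 119 members and 10 in 52. Library 3 was highest in 70 members, library 9 in 44 and library 6 in 36. Among all 8799 components with a single sequence and at least 1 count in each ganglion 19 library, library 3 was highest in 22.5%, library 9 in 34.8% and library 6 in 42.7%, and the median ratio was 9.43. All 6 orders of the 3 libraries occurred, in 18 to 39 members each. With TMM scaling library 3 was highest in 89 members, library 9 in 37 and library 6 in 24, and the orders held 10 to 48 members each.

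**Figure D3:**
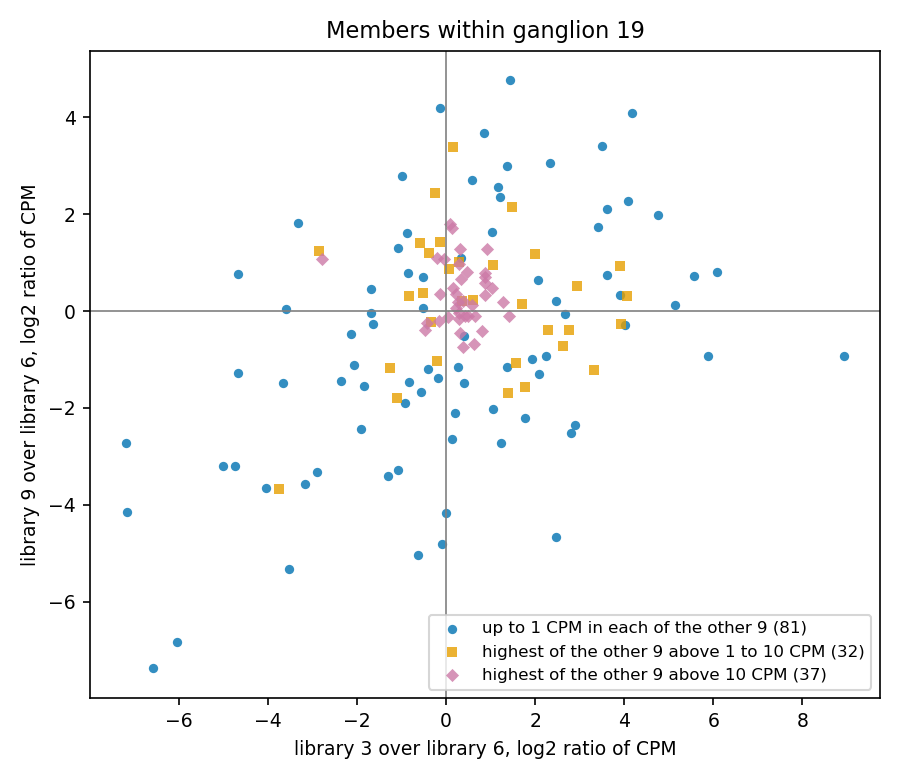
Level of each of the 150 members in library 3 (horizontal) and in library 9 (vertical), both over library 6, as log2 ratios of CPM. The 37 members above 10 CPM outside ganglion 19 (diamonds) mostly gather near 0, with a median ratio of highest to lowest library of 1.76, while members near silence elsewhere (circles) spread in all directions.

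The spread within ganglion 19 followed the class. The median ratio of highest to lowest library was 16.4 in the 37 members with no counts elsewhere, 8.14 in those of up to 1 CPM, 4.22 in those above 1 and up to 10 CPM, and 1.76 in those above 10 CPM. The lowest counts rise over the same classes, with medians of 5, 14.5, 83 and 1009, and the part of counting error in the spread was not tested. Among members of at most 1 CPM elsewhere, library 3 was highest in 33, library 6 in 28 and library 9 in 20. Among those above 10 CPM library 3 was highest in 21, library 6 in 3 and library 9 in 13. The widest range of L in ganglion 19 was that of comp45022_c0, with a 932-fold range of CPM from 1 count in its lowest library. The next was comp18479_c0, with 123, 2.60 and 4.29 CPM in libraries 3, 6 and 9 and 3 counts in all outside ganglion 19.

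The rule was also applied without each library in turn, and the left-out library was then read. This is a partial check, since the other libraries it is set against took part in the choice, whereas the shares over all components carry no such condition, so the difference between the shares is in part built in. Without library 3, 150 components were chosen from libraries 6 and 9, and library 3 lay above all 9 other libraries in 41 of them (27.3%). Over all 48933 components with a single sequence and any count the share was 8.05%, and over those with counts in libraries 6 and 9 it was 6.71%. Library 6 lay above the 9 in 66 of 150 chosen without it (44.0%, against 12.6% over all and 12.1% of those with counts in libraries 3 and 9). Library 9 did so in 54 of 150 (36.0%, against 8.71% and 11.7%). With 150 chosen, most failed in each case, and many had no count in the left-out library: 94 of 150 for library 3, 44 for library 6 and 80 for library 9. Over all single-sequence components, 33.6%, 51.6% and 39.7% had a count in libraries 3, 6 and 9. With the 50 of widest gap, library 6 lay above the 9 in 64.0%, library 9 in 56.0% and library 3 in 28.0%.

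A reading across sequencing lanes set library 9 against fewer libraries, a lower bar than the 9 above. Components were chosen in lane 8 alone, with libraries 3 and 6 above libraries 2, 8 and 4, and were then read in lane 4. Library 9 lay above libraries 5, 10, 11 and 1 there in 46 of 150 (30.7%), against 11.7% of all components and 17.3% of those with counts in libraries 3 and 6. Of the 150, 63 had no count in library 9. Neither of the shares beside it was matched for low levels in ganglia 10 and 2. This reading was added after seeing the data. Without library 3, 6 or 9 the number of components with a gap above 0 was 826, 412 or 697, against 152 with all, and it cannot fall when a library is left out. Of the 150 members, 41, 65 and 54 stayed among the first 150. This restates the left-out counts, since a component where the left-out library lies above the 9 has a gap above 0.

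For a library of ganglion 10 or 2, staying below ganglion 19 when left out is in large part built in, since the choice took components high in ganglion 19. Library 2 of ganglion 10 lay below the lowest ganglion 19 library in 96 of 150 components chosen without it (64.0%) and library 1 of ganglion 2 in 106 (70.7%). For the other 7 libraries the number was 135 to 147 of 150, and 71 to 89 of the 150 had no count in the library. Over all components with any count the shares were 3.17% for library 2, 2.21% for library 5, 3.37% for library 8, 2.28% for library 10, 2.52% for library 11 and 3.01% for library 12 of ganglion 10, and 10.5% for library 1, 3.19% for library 4 and 3.89% for library 7 of ganglion 2. Among the 8799 components with counts in all 3 ganglion 19 libraries, the share was 58.3% for library 1 and 12.3% to 21.6% for the other 8. Without library 2 the number of components with a gap above 0 was 251, and without library 1 it was 229, where leaving a library out can only keep or raise it.

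**Figure D4:**
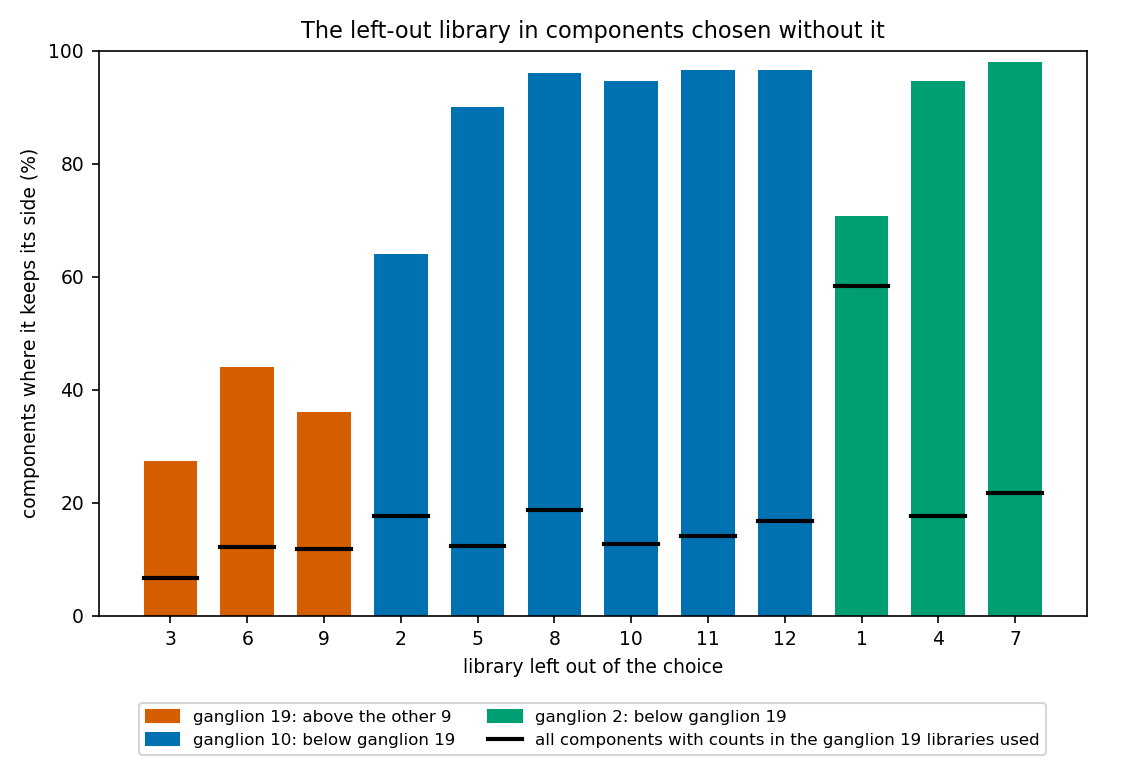
For each library left out of the choice (horizontal), the percentage of the 150 components chosen without it in which it kept its side (bars): above all 9 others for the ganglion 19 libraries 3, 6 and 9, and below all of ganglion 19 for the others. Black lines give the same percentage over all single-sequence components with counts in the ganglion 19 libraries used; bars lie between 27.3% and 44.0% for ganglion 19, at 64.0% and 70.7% for libraries 2 and 1, and between 135 and 147 of 150 components for the other 7.

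Traces of the members outside ganglion 19 were uneven between libraries. Of the 113 members with a count in ganglion 10 or 2, library 2 held the highest level in 40 (35.4%), where it held the highest in 18.5% of all single-sequence components with a count there. Library 5 was highest in 16.8% of members, close to its 16.1% of all components, and library 7 in 2.65% of members against 7.85% of all. Library 2 had counts of 90 of the 150 members (60.0%), more than any other library outside ganglion 19, where 60 to 78 were detected (40.0% to 52.0%). Over all single-sequence components the share with a count was 64.7% in library 2 and 30.7% to 71.3% in those others.

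**Figure D5:**
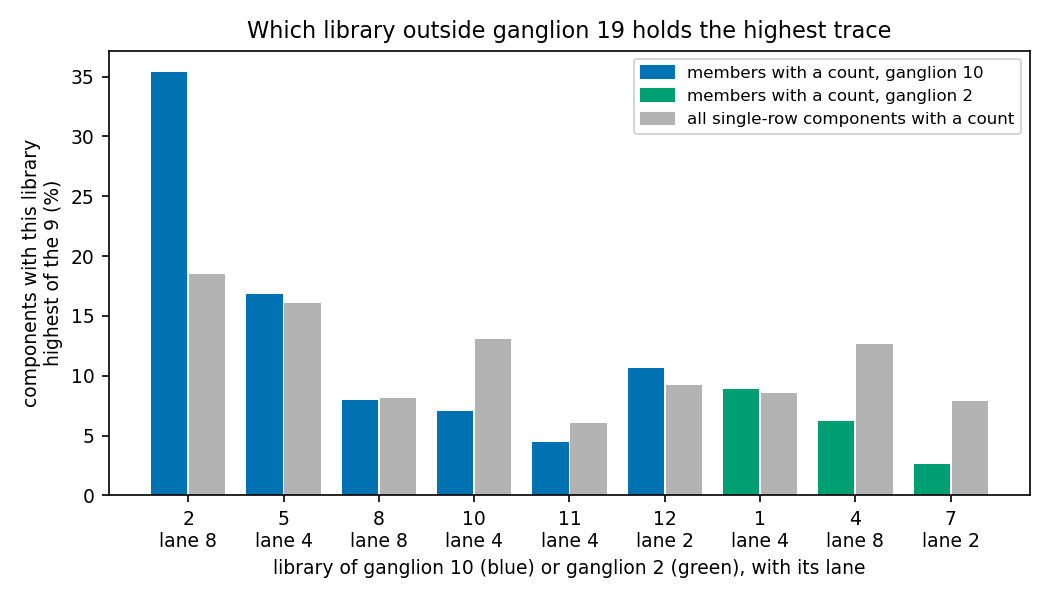
For each library of ganglion 10 (blue) and ganglion 2 (green), with its lane, the percentage of the 113 members with a count outside ganglion 19 in which that library had the highest CPM of the 9. Grey bars give the same percentage over all single-sequence components with a count there; library 2 stands out at 35.4% against 18.5%.

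Library 2 shared lane 8 with libraries 3 and 6, and so did libraries 8 and 4. Library 8 held the highest trace in 7.96% of members and 8.10% of all single-sequence components with a count there, and library 4 in 6.19% and 12.7%. In 12 members library 2 had at least 10 counts and at least 5 times the level of the next of the 9 libraries, a pattern found in 1 member for library 1, in 1 for library 8 and in none for the other 6. Among components with at least 10 counts in library 2, that is 21.1% of members and 13.8% of all. For library 1 it is 2.63% of members and 24.9% of all. The 12 include comp5782_c0, comp655_c0 and comp2958_c0. Over the 57 members with at least 10 counts in library 2, its level ran from 0.195% to 83.6% of that in library 3 (median 24.5%), and the median was 46.4% of that in library 6 and 30.4% of that in library 9. The part of the shared lane in these traces was not tested.

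The difference of ganglion 10 from ganglion 2 was not part of the rule, although the rule capped the level of every member in both. It was fitted by edgeR's quasi-likelihood test over all contigs, and 103 members passed the filter on low counts, most of them through ganglion 19: with the libraries of ganglia 10 and 2 alone 44 passed. Of the 103, 11 had no counts in either of the ganglia compared and could not be called. None of the other 92 was called, and 0 of 41445 contigs (0%) were called in all. At an unadjusted p under 0.05 there were 10 members, where 9.77% of all contigs were, and since the members tested were chosen high in ganglion 19 nothing is read from their share. With ganglia 10 and 2 alone edgeR called 0 of the 44 members, and 5 had an unadjusted p under 0.05. DESeq2, fitted on all libraries, called 1 of the 107 members it tested, comp1049_c0, where it called 2.93% of all contigs it tested. These members too were chosen high in ganglion 19, and DESeq2 was not run on ganglia 10 and 2 alone. Nothing is read from this share either.

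The 2 members with the smallest p in each direction had fold changes of several-fold with wide spreads, and none passed edgeR's test. comp235_c0 had 53.4 to 894 CPM in ganglion 10 (median 714), against 76.3, 81.6 and 62.3 CPM in libraries 1, 4 and 7 of ganglion 2. Its log2 fold change was 2.40 (SE 0.77, edgeR adjusted p = 0.472), with library 8 of ganglion 10 below all of ganglion 2 and the other 5 above. comp4329_c0 averaged 73.8 ± 33.9 CPM in ganglion 10 (SD, n = 6), against 1.74, 28.4 and 14.3 CPM in libraries 1, 4 and 7 (log2 fold change 2.22, SE 0.81, edgeR adjusted p = 0.472). Here too library 8 was the lowest of ganglion 10, below libraries 4 and 7 of ganglion 2, and the other 5 libraries lay at 65.8 to 106 CPM, above all of ganglion 2.

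The 2 members of smallest p that were lower in ganglion 10 rested on library 1. comp1049_c0 had 0.862 to 3.81 CPM in ganglion 10 (median 1.40), against 23.8, 2.33 and 1.41 CPM in libraries 1, 4 and 7, and its log2 fold change was -3.67 (SE 1.02, edgeR adjusted p = 0.472). Without library 1 it was -0.05. DESeq2 gave -4.15 with an adjusted p of 0.0275. comp10176_c0 had 0 to 8.16 CPM in ganglion 10 (median 0.603), against 36.5, 1.40 and 0.745 CPM in libraries 1, 4 and 7 (log2 fold change -4.18, SE 1.49, edgeR adjusted p = 0.472), and without library 1 the sign turned, to 0.76. In ganglion 19 these 2 members had 25.6, 177 and 376 CPM and 58.7, 43.8 and 41.0 CPM in libraries 3, 6 and 9. Their gaps of 0.10 and 0.16 became -0.24 and -0.93 with TMM-scaled CPM, where library 1, which has the lowest factor, lay above the lowest ganglion 19 library.

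Some properties that the rule did not name set the members beside other components, although the rule bears on them through the counts it needs. No member shared its values in all libraries with another contig, where 8.49% of single-sequence components did. Counts that are not whole arise when an estimate divides a read among several sequences. They were seen in libraries 10 to 12 for 45 of the 82 members with counts there (54.9%), against 32.4% of all single-sequence components with counts there, with no matching for level. The 45 included 35 of the 37 members above 10 CPM and 2 of the 44 above 0 and up to 1 CPM. How reads shared between sequences bear on the levels of those 35 was not tested.

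The same rule gave fewer components for ganglion 2, which also has 3 libraries: 42 lay above all 9 libraries of the other ganglia. Library 1 of ganglion 2 had counts of the fewest single-sequence components of all libraries (30.7%), and the part of this in the 42 was not tested. The reverse pattern for ganglion 19, with all 3 libraries below every library of the other ganglia, was found in 409. Libraries 3 and 9 had counts of fewer single-sequence components than all others but library 1, and the part of this in the 409 was not tested. When the counts of components with several sequences were summed, 58 of 9658 had a gap above 0 (0.601%). The difference of these shares was not tested.

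Of the 150 members, 8 share a component number with 1 other component, differing in the part after it. None of these partners is a member. Among all single-sequence components, 2.32% share their number with another component, and the difference from the members was not tested. comp3395_c1, with no count outside ganglion 19, has the partner comp3395_c0, which averaged 43.8 CPM in ganglion 19 and 3.23 CPM in the other 9 libraries but had a gap of -2.10. comp271_c1 has comp271_c0, with 1069 CPM in ganglion 19 and 275 CPM in the others (gap -0.47). comp14098_c1, partner of comp14098_c0, was lower in ganglion 19 (mean 12.8 CPM) than in the others (mean 47.6 CPM). The partners did not all follow the members, and the sources used here do not say how the assembly relates such pairs.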

How the data were processed

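The deposited table holds counts per assembled sequence (contig) in 12 libraries, with no gene names. The deposited values are whole-number counts in libraries 1 to 9 and expected counts, not all whole, in libraries 10 to 12, which were rounded for the tests. FastQC, RSEM, TopHat and Cufflinks are named without versions, per the submitters' processing notes, and the assembler, its filters and the counting settings are not stated in the sources used here. Numbered columns were matched to the number at the start of each title. Total counts ran from 6436783 to 19110631.

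CPM used column totals. The members and the rule that names 28 of them were chosen with earlier results of these data known. The rule names the 12 widest gaps, the 5 highest means in ganglion 19, the 3 most and 3 least even members there, the 3 highest elsewhere, the components at the limit, and the 2 smallest p in each direction for ganglion 10 over ganglion 2. Pooled folds compare summed counts with exact 95% binomial intervals, or a bound from 3 counts over the 9 libraries, and since PCR can copy a molecule they cover counting error only. The test of ganglion 10 over ganglion 2 was edgeR 4.0.16 (filterByExpr with a minimum count of 10, TMM, quasi-likelihood, Benjamini-Hochberg over all contigs, threshold 0.05), fitted on all 12 libraries with the ganglion as factor and checked on simulated data. DESeq2 1.42.0, other scalings and filters, the lane as a term and each library left out were alternatives. The limits of the classes and of the traces in library 2 were set after seeing the data. R 4.3.3, Python 3.11.15, pandas 2.3.3 and scipy 1.17.1 were used.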

Additional observations from a re-analysis of the deposited data

Results flagged for a closer look

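Dixon's 95% limit for 6 libraries, 0.625 of the range, assumes normally spread values, and many levels here are near 0. The values checked also share the same libraries, so no number expected by chance is given. Among 29 values checked over the 6 libraries of ganglion 10, 11 had a library whose distance from its neighbour exceeded this limit. Library 2 was the high one in 7 of them: comp15268_c0 (4.758 CPM, next 1.293), comp5782_c0 (4.622, next 0.7758), comp7198_c0 (1.36, next 0.4115), comp3495_c0 (7.749, next 1.635), comp655_c0 (46.36, next 0.9342), comp2958_c0 (12.51, next 0.8174) and comp10176_c0 (8.157, next 0.7006), all in CPM. Library 2 ran in the lane of libraries 3 and 6, whose part was not tested. Library 8 was the high one for comp9897_c0 and comp18479_c0, at 0.1724 CPM each, which is 2 counts against none, and the low one for comp235_c0, at 53.35 CPM where the next had 589.5. Library 12 was the high one for comp27651_c0, at 36.39 CPM (next 23.66).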

How the results depend on the processing

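Fewer members stayed among the first 150 without library 1, 2, 3, 6 or 9 than with TMM-scaled CPM. The number of components with a gap above 0, 152, was 218 with TMM-scaled CPM, 225 with the size factors of DESeq2 and 201 in libraries 1 to 9. It ran from 156 to 826 when a single library was left out. Leaving libraries out, as also in libraries 1 to 9, can only keep or raise this number, since fewer are compared. It was 965 without libraries 1 and 3 and 341 without libraries 1 and 2, both chosen after seeing the data. Of the 150 members, 41 to 147 stayed among the first 150 with a library left out, the fewest without library 3, 120 with TMM-scaled CPM, and 149 and 150 with pseudocounts of 0.1 and 5. Among the 50 components of widest gap, the left-out library kept its side in 64.0% for library 6, 56.0% for library 9 and 28.0% for library 3. When lane 8 chose and lane 4 was read, against fewer libraries, library 9 did so in 44.0%. With TMM scaling the share was 72% for library 2 and 98.7% for library 10. Gaps turned below 0 for comp1187_c0 (-0.10) and comp111221_c0 (-0.13) with DESeq2 size factors, for comp1049_c0 with TMM (-0.24) and DESeq2 size factors (-0.41), and for comp10176_c0 with both (-0.93 and -1.56). For ganglion 10 over ganglion 2 DESeq2 called 1 member, and 0 were called under each other alternative run, the lane as a term among them; without a filter on low counts edgeR called 285 of 76269 contigs, none of them a member. The log2 fold change of comp10176_c0 ran from -6.35 to 0.76 with a library left out and was -1.32 without libraries 1 and 2, a choice made after seeing the data. No paired analysis was possible because the labels do not say which libraries come from the same leech, and each library has a number of its own. Thin members are limited by depth: 39 had fewer than 10 counts in their lowest ganglion 19 library.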
